A study of Homo sapiens with 8 samples.

Results

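The 10 genes described here are a set known for pulmonary surfactant and for the alveolar type II cell that makes it: SFTPA1, SFTPA2, SFTPB, SFTPC, SFTPD, ABCA3, LPCAT1, NKX2-1, NAPSA and SLC34A2. They were taken by gene symbol, and all 10 were found among the 19158 genes of each library. RNA was measured in A549 cells, an epithelial line established from a human lung adenocarcinoma and labelled as wild type, in 4 untreated wells and in 4 wells exposed to 1 µM dexamethasone for 48 h. Dexamethasone is a synthetic agonist of the glucocorticoid receptor. No other agent or allele is named for either group, and the untreated wells are not described as having received a vehicle. The values were read as FPKM, a fragment count divided by transcript length and by library size, so levels can be compared between genes.

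Surfactant is a film of phospholipid and protein that lowers surface tension in the alveoli. Type II cells assemble its lipids and the small hydrophobic proteins SP-B and SP-C in lamellar bodies, which the transporter ABCA3 fills with phospholipid. The collectins SP-A and SP-D are secreted, bind sugars on microbes and belong to the innate defence of the lung. NKX2-1 (also TTF-1) is the lung lineage transcription factor that activates several surfactant genes, and glucocorticoids are known for speeding the maturation of the surfactant system before birth.

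In these cells the set divided into 3 kinds of gene. ABCA3 and LPCAT1, which handle surfactant phospholipid, were well expressed in every library and did not differ past the threshold. SFTPD, which encodes SP-D, was near the limit of detection in untreated cells and rose to 3.04 ± 0.535 FPKM (SD, n = 4) after dexamethasone. The remaining genes were close to silent: SFTPA1 was listed at 0 in all 8 libraries, and SFTPA2, SFTPC, NKX2-1 and SLC34A2 stayed below 0.3 FPKM in each of them. SFTPB was listed at 0 in every untreated library and was above 0 in every dexamethasone library, while NAPSA lay near 0.5 FPKM in both groups.

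Promoter sequences are shown first for the genes that set these kinds apart: SFTPD and SFTPB, whose dexamethasone libraries all lay above the untreated ones, and the silent pair SFTPA1 and SFTPA2. They are the RefSeq windows of GRCh38.p14, and 9 of the 10 genes had at least 1 window of 300 bases, from 250 before to 50 after an annotated start. Short motifs, 6 in all, were searched on both strands in these 14 windows and in all 35116 windows of the table, and capitals mark the matches. A match is a string of letters and not a measured binding site. In SFTPD the first 10 capitals hold the glucocorticoid receptor half-site TGTTCT at −195 from the start, overlapping a C/EBP motif (TTGCNNAA, here on the opposite strand) at −193, and the last 7 are an AP-1 motif (TGANTCA) at −109. The bases shown are chr10:79949106-79949355 on the minus strand, inside the gene's annotated interval, since RefSeq places this start downstream of the gene's outer end.
SFTPD: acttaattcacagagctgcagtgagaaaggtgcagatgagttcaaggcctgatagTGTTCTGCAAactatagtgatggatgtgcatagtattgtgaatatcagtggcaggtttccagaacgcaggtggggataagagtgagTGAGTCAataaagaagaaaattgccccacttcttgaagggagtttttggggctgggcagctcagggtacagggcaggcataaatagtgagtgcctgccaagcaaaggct
SFTPB had 2 windows, and the inner one, chr2:85668150-85668449, is not shown and held only an AP-1 motif, at 22. The SFTPB window nearest the outer end of the gene held an AP-1 motif at −29 and none of the other 5. Its bases shown are chr2:85668742-85668991 on the minus strand.
SFTPB: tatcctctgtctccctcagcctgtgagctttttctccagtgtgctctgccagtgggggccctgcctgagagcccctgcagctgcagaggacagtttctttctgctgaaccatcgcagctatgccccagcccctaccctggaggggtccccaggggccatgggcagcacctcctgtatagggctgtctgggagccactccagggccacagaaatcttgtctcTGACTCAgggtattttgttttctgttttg

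The silent pair SFTPA1 and SFTPA2 are close copies of one another, and both promoters held the NKX2-1 motif CTCAAG followed by a forkhead motif of the FOXA type (TGTTTAC, here on the opposite strand). The stretches run from −180 to −101 and are chr10:79610759-79610838 on the plus strand for SFTPA1 and chr10:79560508-79560587 on the minus strand for SFTPA2. Capitals mark CTCAAG at −170 and −172 and the forkhead motif at −116 and −117, respectively.
SFTPA1: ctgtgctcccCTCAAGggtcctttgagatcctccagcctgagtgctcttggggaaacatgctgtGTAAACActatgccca
SFTPA2: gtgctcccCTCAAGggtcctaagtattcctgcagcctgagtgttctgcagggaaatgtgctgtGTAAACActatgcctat
In this window SFTPA2 also held glucocorticoid receptor half-sites at −140, in lower case above, and at −89. The other SFTPA2 window, chr10:79559822-79560121, is not shown and held a receptor half-site at −245 and an AP-1 motif at −68. None of the windows of these 10 genes held the fuller receptor site, taken as GNACA and TGTNC separated by 3 bases, which was found in 0.39% of all windows. The other motifs were common in windows of this length: 14.8% held the receptor half-site, 12.4% the NKX2-1 motif, 10.5% the C/EBP motif, 7.71% the AP-1 motif and 3.42% the forkhead motif. No motif was found in the windows of ABCA3 and LPCAT1. The window of SLC34A2 with a match held a C/EBP motif at −47, and NAPSA held an NKX2-1 motif at −196. In NKX2-1 itself a forkhead motif lay at −130 and an NKX2-1 motif at 24.

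Each library had 14798 to 15182 genes above 0, and the steps between low values corresponded to 24920000 to 29020000 fragments per library. The wells carry replicate numbers 1, 3, 4 and 5 in both groups and a single batch label, and p-values measure the spread between these wells of 1 line. FKBP5, an established glucocorticoid target, rose from 5.80 ± 1.78 to 136 ± 37.6 FPKM (SD, n = 4 each), without overlap between the groups. Both libraries numbered 5 stood apart: they had the fewest genes above 0 (14798 untreated and 14873 after dexamethasone) and the lowest scaling factors of their groups (0.83 and 0.94). ABCA3, LPCAT1 and SFTPD were each highest in replicate 5 of both groups, so their values without these libraries are given below. The keratins KRT8 and KRT18 of simple epithelium were abundant (1453 ± 435.3 and 946 ± 218.0 FPKM untreated), while the leukocyte gene PTPRC and the fibroblast gene COL1A2 were listed at 0 in all 8 libraries. Of 12 further type II markers only 3 were high enough to test: MUC1, described below, CTSH and LRRK2. Over the 8 libraries CTSH was at 6.64 to 11.6 FPKM and LRRK2 at 0.737 to 3.04 FPKM. HHIP (0.103 to 0.8395 FPKM) and FGFR2 (0.137 to 0.361 FPKM) were below the filter but above 0 in every library. CLDN18, DMBT1 and SFTA3 did not exceed 0.0321 FPKM in any library. Of the other epithelial genes, CDH1 was at 6.80 ± 1.51 FPKM untreated and rose to 18.2 ± 1.45 FPKM (SD, n = 4 each; limma adjusted p = 8.69e-05), and EPCAM was below the filter at 0.140 to 0.765 FPKM. Most transcripts of the surfactant set and of these further type II markers were below the filter on low values. In bulk RNA of this kind, fewer cells expressing a gene and less RNA per cell cannot be told apart.

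**Figure D1:**
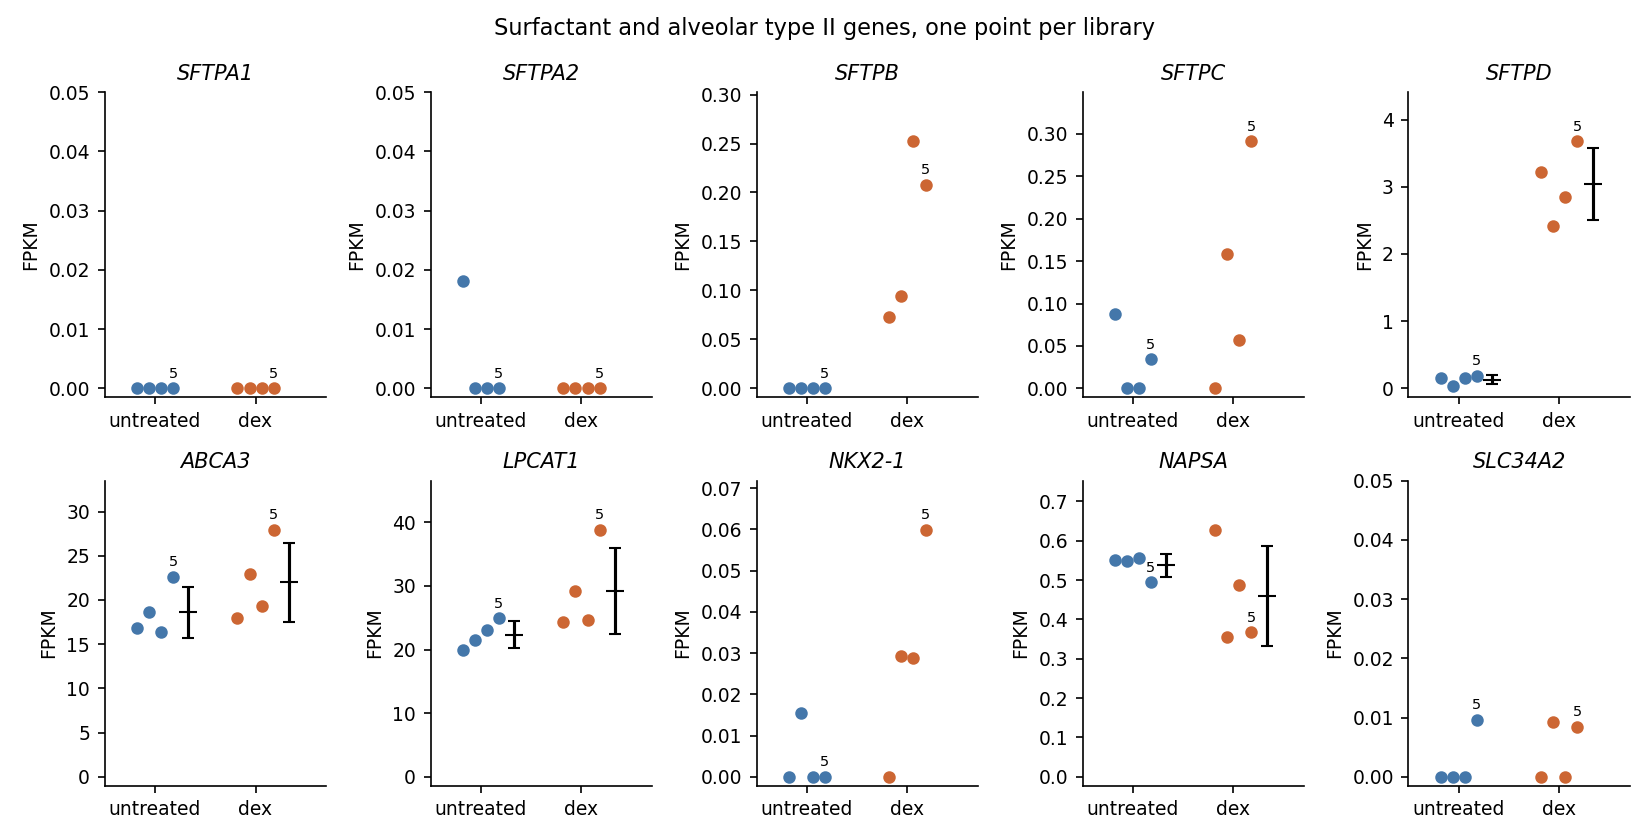
FPKM of each of the 10 genes on a linear axis of its own, with 1 point per library in the order of replicates 1, 3, 4 and 5, blue for untreated and orange for dexamethasone ("dex"), and 5 marking replicate 5; bars give mean ± SD (n = 4) for the 4 tested genes. SFTPD separates the groups at 2.42 to 3.68 against 0.0310 to 0.187 FPKM, SFTPB is above 0 only in dexamethasone libraries, and the points of ABCA3, LPCAT1 and NAPSA overlap.

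The test asked which of these genes differed after dexamethasone. Only genes with at least 0.5 FPKM in at least 4 libraries were tested, with limma on log2(FPKM + 1), and p-values were adjusted by Benjamini-Hochberg over all 12161 such genes. Of the 10 genes, 4 (SFTPD, ABCA3, LPCAT1 and NAPSA) passed this filter, and 1 of these 4 was called, in the higher direction, at an adjusted p under 0.05. Among all tested genes 27.2% were called, 11.9% higher and 15.3% lower, so 1 in 4 is near the background. Log2 fold changes below are differences of log2(FPKM + 1), which understates the change of low genes.

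SFTPD (ENSG00000133661, chromosome 10, 79937740 to 79982614, GRCh38, minus strand) encodes the secreted collectin SP-D, which binds sugars on bacteria, fungi and viruses. It measured 0.151, 0.0310, 0.147 and 0.187 FPKM in untreated replicates 1, 3, 4 and 5, and 3.22, 2.42, 2.85 and 3.68 FPKM in the dexamethasone replicates of the same numbers. Every dexamethasone library lay far above every untreated one. The means were 0.129 ± 0.0678 and 3.04 ± 0.535 FPKM (SD, n = 4 each), a ratio of means of 23.6. The log2 fold change was 1.82 (SE 0.126, 95% interval 1.54 to 2.10, limma adjusted p = 1.11e-05), rank 127 of 12161 from the highest. By mean FPKM the gene moved from the 30.8 to the 51.6 percentile of all 19158 genes. That base includes 6997 genes below the filter on low values, so its middle is a low level among the tested genes.

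The untreated level of SFTPD rested on few fragments. Converted with transcript length and depth, the 4 untreated libraries held about 16.9 fragments in all and the 4 dexamethasone libraries about 424, and the gene passed the filter only through the treated group. Leaving out any 1 library gave log2 fold changes of 1.73 to 1.90, and leaving out both libraries numbered 5 gave 1.80 (limma adjusted p = 1.46e-05). With a pseudocount of 0.1 in place of 1 the value was 3.79. SFTPD overlaps SFTPD-AS1, ZNRF2P3 and another gene on the opposite strand, and whether the counting used the strand is not given in the sources used here.

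The other 2 lung collectins did not accompany it. SFTPA1 (ENSG00000122852, chromosome 10, 79610939 to 79615455, plus strand), 1 of 2 genes for SP-A, was listed at 0 in all 8 libraries, where 3 fragments would have given at most 0.0544 FPKM. SFTPA2 (ENSG00000185303, chromosome 10, 79555852 to 79560402, minus strand), the other, had 0.0181 FPKM in untreated replicate 1, about 1.02 fragments, and at 0 in the other 7 libraries. Neither is distinguishable from no expression at this depth. The 2 transcripts share 5.52% of the 150-base stretches of SFTPA1 and 5.56% of those of SFTPA2, so over 90% of such stretches would still separate them. Of 7 other collectin and ficolin genes none passed the filter, and 5 were listed at 0 in all libraries. COLEC11, a collectin of blood and kidney, was above 0 in every library, at 0.171 to 0.336 FPKM.

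SFTPB (ENSG00000168878, chromosome 2, 85657314 to 85668741, minus strand) encodes the precursor of SP-B, the hydrophobic protein without which lamellar bodies and the surface film do not form. All 4 untreated libraries list it at 0, whereas it measured 0.0729, 0.0940, 0.252 and 0.208 FPKM in dexamethasone replicates 1, 3, 4 and 5. The groups did not overlap, and the mean difference was 0.157 FPKM with an SD of 0.0870 in the treated group. These values correspond to about 6.6, 9.0, 24.0 and 21.4 fragments, so each treated library was above 3 fragments, which in an untreated library would have read at most 0.0339 FPKM. The level was below the filter on low values. In an exact permutation test of the FPKM, two-sided, p was 0.0286, the smallest that 4 against 4 libraries allow, and it is not adjusted for the genes examined. Among 4400 genes that were below the filter and above 0 somewhere, 5.57% likewise had all dexamethasone libraries above all untreated ones. Among 3121 genes listed at 0 in every untreated library, 1.25% were above 0 in all 4 dexamethasone libraries. That base includes the 2597 genes at 0 in all 8 libraries, which could not meet this condition. The share is therefore lower than it would be among detected genes. When the filter was dropped, the log2 fold change of SFTPB came to 0.21 (SE 0.0497, limma adjusted p = 0.0204) and it was called, which made 2 of the 9 genes then fitted, where 21.7% of all 16561 genes fitted were called.

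SFTPC encodes the precursor of SP-C, a small palmitoylated peptide of the surface film made only by type II cells in the adult lung. Its row (ENSG00000168484, chromosome 8, 22156913 to 22164479, plus strand) held 0.0871, 0, 0 and 0.0342 FPKM in untreated replicates 1, 3, 4 and 5, and 0, 0.159, 0.0564 and 0.291 FPKM in the dexamethasone replicates. The groups overlapped, and the mean difference of 0.0962 FPKM was not past the threshold (exact permutation test, two-sided p = 0.257). The difference was 0.0413 FPKM without dexamethasone replicate 5 (exact p = 0.457) and 0.138 FPKM without dexamethasone replicate 1 (exact p = 0.0571). In all, the untreated libraries held about 2.59 fragments and the dexamethasone libraries about 11.9. The gene overlaps LGI3 on the opposite strand, which limits what so few fragments can show. Proteins with the same kinds of domain as SP-B and SP-C were described by a list of 9 saposin and BRICHOS genes, of which 3 were tested and none was called by limma at an adjusted p under 0.05. PSAP, the abundant precursor of the lysosomal saposins, was at 312.6 ± 15.4 and 361 ± 46.1 FPKM (SD, n = 4 each), with an adjusted p of 0.482.

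ABCA3 (ENSG00000167972, chromosome 16, 2275881 to 2340746, minus strand) encodes the pump that moves phospholipid into lamellar bodies. It measured 16.8, 18.6, 16.3 and 22.6 FPKM in untreated replicates 1, 3, 4 and 5, and 17.9, 22.9, 19.3 and 27.9 FPKM after dexamethasone. The groups overlapped, and replicate 5 was the highest of each. Mean levels were 18.6 ± 2.86 and 22.0 ± 4.46 FPKM (SD, n = 4 each), at the 82.8 and 85.7 percentiles of all genes, and every library was above each of the 5 surfactant protein genes. The log2 fold change was 0.20 with a 95% interval from −0.29 to 0.69 (SE 0.218, limma adjusted p = 0.514), an interval that holds 0 and rises of up to 0.69. Leaving out dexamethasone replicate 5 gave 0.07, leaving out untreated replicate 5 gave 0.38 and leaving out both gave 0.24, none of them called. Once each library's trend with gene GC content was removed, it was 0.45 and was called (limma adjusted p = 0.00735). The transcript has 60.4% GC, against a median of 48.7% in tested genes.

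LPCAT1 (ENSG00000153395, chromosome 5, 1456480 to 1523977, minus strand) encodes the acyltransferase that remodels phosphatidylcholine into its dipalmitoyl form, the main lipid of surfactant. Its untreated values were 19.9, 21.6, 23.1 and 24.9 FPKM, and its values after dexamethasone were 24.4, 29.1, 24.7 and 38.8 FPKM, in replicates 1, 3, 4 and 5. Dexamethasone replicates 1 and 4 lay just below untreated replicate 5, and dexamethasone replicate 5 stood well above the rest. From 22.4 ± 2.14 to 29.2 ± 6.74 FPKM (SD, n = 4 each), the log2 fold change was 0.33, with a 95% interval from −0.13 to 0.80 (SE 0.206, limma adjusted p = 0.260). The difference was not past the threshold, but the call depended on the libraries numbered 5 and on the GC trend. Without dexamethasone replicate 5 it was 0.17 and without untreated replicate 5 it was 0.47, neither called. Without both it was 0.30 and was called (limma adjusted p = 0.0359), as it was at 0.53 with the GC trend removed (limma adjusted p = 0.00655). LPCAT1 was the highest of the 10 genes in every library, and its mean exceeded that of ABCA3 in both groups.

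NAPSA (ENSG00000131400, chromosome 19, 50358477 to 50365830, minus strand) encodes napsin A, an aspartic protease that cleaves the SP-B precursor. Untreated replicates 1, 3, 4 and 5 held 0.550, 0.547, 0.557 and 0.495 FPKM, and dexamethasone replicates held 0.627, 0.356, 0.486 and 0.367 FPKM. The treated libraries spread to both sides of the untreated ones. The means were 0.537 ± 0.0284 and 0.459 ± 0.127 FPKM (SD, n = 4 each), and the log2 fold change was −0.09 with a 95% interval from −0.27 to 0.09 (SE 0.0799, limma adjusted p = 0.437). With the GC trend removed the sign turned, to 0.15 (limma adjusted p = 0.475). The gene overlaps NR1H2 on the opposite strand and only just passed the filter. Among 9 other genes for aspartic proteases of the pepsin family, 3 were tested and 1 was lower: BACE2, at −0.74 (SE 0.164, limma adjusted p = 0.00913). CTSD, the lysosomal cathepsin D, was at 206 ± 38.4 and 305 ± 71.0 FPKM (SD, n = 4 each) and was not called (adjusted p = 0.134).

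SLC34A2 (ENSG00000157765, chromosome 4, 25648011 to 25678748, plus strand) encodes the sodium-phosphate cotransporter through which type II cells take up phosphate from surfactant. It was above 0 in untreated replicate 5 (0.00966 FPKM) and in dexamethasone replicates 3 and 5 (0.00917 and 0.00848 FPKM), each about 1 fragment, and at 0 in the other 5 libraries. Such values do not separate the groups (exact permutation test, two-sided p = 1). The related cotransporters SLC20A1 and SLC20A2, which serve phosphate uptake in most cells, were expressed at 49.0 ± 7.88 and 9.17 ± 2.44 FPKM in untreated cells (SD, n = 4) and were not called.

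NKX2-1 (ENSG00000136352, chromosome 14, 36516392 to 36521149, minus strand), the lineage factor, had 0.0154 FPKM in untreated replicate 3 and 0 in the other 3 untreated libraries. After dexamethasone it measured 0, 0.0293, 0.0287 and 0.0599 FPKM in replicates 1, 3, 4 and 5. That is about 0.863 fragments over the untreated and 7.22 over the dexamethasone libraries, and the groups overlapped (exact permutation test, two-sided p = 0.143). The mean difference of 0.0256 FPKM became 0.0155 without dexamethasone replicate 5 (exact p = 0.257) and 0.0354 without dexamethasone replicate 1 (exact p = 0.0286, not adjusted). Replicate 1 was the only dexamethasone library at 0, so leaving it out ended the overlap and gave the smallest p possible. SFTA3 overlaps it on the same strand and NKX2-1-AS1 on the opposite one, so these few fragments cannot be assigned with certainty. SFTPD rose in libraries in which the transcript of this regulator was at or near the limit of detection. Whether NKX2-1 had a part in that rise was not tested.

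The wider set of transcription factors of type II cells changed in both directions. Of 12 genes 11 were tested, 3 were higher, 6 lower and 2 not called, with a median log2 fold change of −0.47 against −0.00 over all tested genes. The shares called over all tested genes were 11.9% higher and 15.3% lower. CEBPB, a C/EBP factor of the acute-phase response, rose from 51.4 ± 3.85 to 155 ± 15.7 FPKM (SD, n = 4 each), by 1.55 (SE 0.169, limma adjusted p = 0.000166). CEBPD, of the same family, rose from 9.60 ± 1.30 to 21.7 ± 2.62 FPKM, by 1.08 (limma adjusted p = 0.00225), and the epithelial factor KLF5 rose by 0.98 (limma adjusted p = 0.00111). On the other side SOX9, a factor of the embryonic distal lung, fell from 11.3 ± 1.79 to 3.30 ± 0.289 FPKM, a log2 difference of −1.53 (SE 0.115, limma adjusted p = 1.47e-05). FOXA2, a forkhead factor of foregut epithelium, fell from 17.95 ± 0.922 to 7.16 ± 1.14 FPKM, a log2 difference of −1.24 (SE 0.167, limma adjusted p = 0.000553). GATA6 was also called lower, at −0.47 (limma adjusted p = 0.00487), but not with the GC trend removed, at −0.28. The remaining 3 called lower were CEBPA, ETV5 and SREBF1, and each lost its call in at least 1 fit without 1 library: CEBPA without dexamethasone replicate 4, ETV5 without dexamethasone replicate 1, 3 or 4, and SREBF1 without those or untreated replicate 1. GRHL2, a grainyhead factor of epithelial junctions, was listed at 0 in all 8 libraries.

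**Figure D2:**
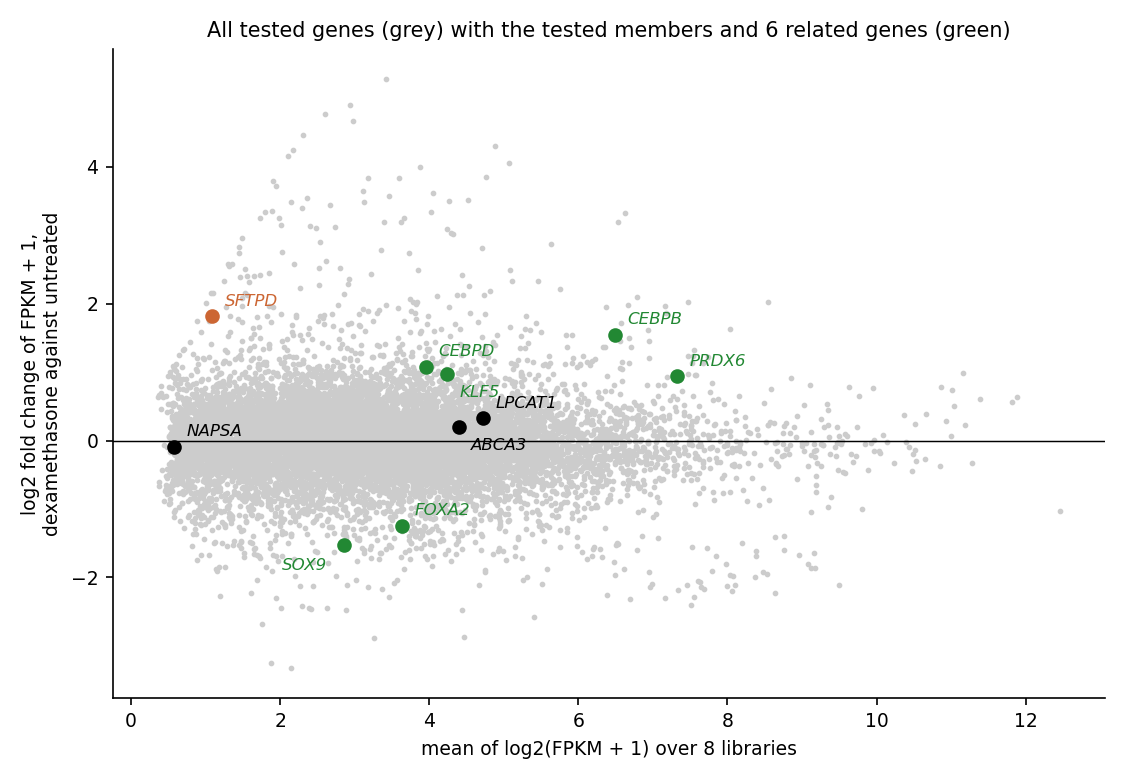
Each tested gene by its mean of log2(FPKM + 1) over 8 libraries (horizontal) and its log2 fold change, dexamethasone against untreated (vertical), with SFTPD in orange, the other 3 tested genes of the set in black and 6 related genes in green. SFTPD, at 1.82, is high for its low level, whereas ABCA3, LPCAT1 and NAPSA lie within the dense band around 0.

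Genes for surfactant lipid synthesis, processing and lamellar bodies were higher or not called. Of 15 genes 12 were tested, with 4 higher, none lower by limma at an adjusted p under 0.05, and a median log2 fold change of 0.21. Over all tested genes 11.9% were called higher and 15.3% lower. PRDX6, a peroxiredoxin whose phospholipase activity takes part in surfactant turnover, rose from 113 ± 3.25 to 223 ± 9.59 FPKM (SD, n = 4 each), by 0.94 (SE 0.144, limma adjusted p = 0.00106). The other called genes encode enzymes of the pathway from choline to phosphatidylcholine. CHKA, which phosphorylates choline, rose from 9.25 ± 1.36 to 15.3 ± 1.87 FPKM, by 0.65 (SE 0.113, limma adjusted p = 0.00238). PCYT1A, the rate-limiting enzyme, rose from 12.1 ± 2.06 to 17.1 ± 0.968 FPKM, by 0.47 (SE 0.105, limma adjusted p = 0.00903). CHPT1, which makes the final product, was higher by 0.43 (SE 0.134, limma adjusted p = 0.0399), a call lost in 6 of 18 alternatives (untreated replicate 3 or 4 or dexamethasone replicate 1, 3 or 5 left out, or no scaling). Other enzymes of these steps were not called: CHKB, which also phosphorylates choline, had −0.30 (adjusted p = 0.252), CEPT1 had 0.38 (adjusted p = 0.221), and PCYT1B was at or below 0.00714 FPKM. CTSH, a cathepsin that cleaves surfactant protein precursors, had −0.43 and was not called (adjusted p = 0.0812). PGS1, also of this list, had −0.36 and was not called (adjusted p = 0.181). For both CTSH and PGS1 every dexamethasone library lay below every untreated one, but the share of all tested genes with such a separation was not computed.

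Relatives of the 2 well expressed genes were mixed. Among 11 other ABCA transporters 4 were tested and 3 called. ABCA7 was higher by 0.85 (SE 0.143, limma adjusted p = 0.00187), and ABCA5 rose from 0.822 ± 0.688 to 3.89 ± 1.66 FPKM (SD, n = 4 each). ABCA2 was lower at −0.36 (limma adjusted p = 0.0490), a call lost in 11 of 18 alternative settings. Among 9 other lysophospholipid acyltransferases, all tested, 1 was higher and 2 were lower, with a median of 0.02. The higher one, MBOAT2, had overlapping groups (1.08, limma adjusted p = 0.0168) and lost its call without untreated replicate 1, at 1.00, or dexamethasone replicate 4, at 1.01. MBOAT1 was lower at −0.66 (limma adjusted p = 0.00153). MBOAT7 was lower at −0.62 (limma adjusted p = 0.0275), a call lost without untreated replicate 1 or dexamethasone replicate 1, 3 or 4 (−0.65 to −0.56).

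Other markers of type II cells were mostly too low to test. Among the 12 further type II markers 3 were tested and 1 was called: MUC1, a membrane mucin, rose from 0.823 ± 0.248 to 6.26 ± 1.08 FPKM (SD, n = 4 each), by 1.97 (SE 0.166, limma adjusted p = 3.29e-05). LPL was listed at 0 in all 8 libraries. SFTA2, a surfactant-associated secreted protein named here after its values were seen, was at 0.125 FPKM in untreated replicate 1 and 0 in the other untreated libraries, and at 0.325 to 0.444 FPKM in all 4 dexamethasone libraries. PGC, the aspartic protease pepsinogen C, was listed at 0 without dexamethasone and measured 0, 0.0827, 0.0486 and 0.179 FPKM with it, in replicates 1, 3, 4 and 5. LAMP3, of the lamellar body membrane, stayed between 0.0221 and 0.141 FPKM.

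Markers of other airway and alveolar cells were read in the same libraries. Of 10 type I markers 4 were tested and 2 called: EMP2 rose from 14.3 ± 1.32 to 77.0 ± 3.78 FPKM and CAV1, the coat protein of caveolae, from 82.2 ± 45.3 to 288 ± 50.6 FPKM (SD, n = 4 each). Their log2 fold changes were 2.33 (limma adjusted p = 6.34e-07) and 1.96 (limma adjusted p = 0.00262). GPRC5A, also tested, was at 79.1 ± 5.54 and 81.8 ± 6.02 FPKM (SD, n = 4 each) and was not called (limma adjusted p = 0.904). RTKN2 had −0.27 and was not called (limma adjusted p = 0.108). The summed level of this list was 119.8 to 217 FPKM in untreated and 386 to 497 FPKM in dexamethasone libraries. Its defining genes AQP5, PDPN, HOPX and CLIC5 stayed at or below 0.0440 FPKM, and AQP4 at or below 0.0573 FPKM. AGER lay between 0.0683 and 0.561 FPKM in untreated and 0.255 and 0.456 FPKM in treated libraries. The club cell genes SCGB1A1, SCGB3A1, SCGB3A2 and BPIFA1 were listed at 0 in all libraries, and MUC5B, the only tested gene of 7, was lower at −0.61 (limma adjusted p = 0.00476), a call lost with the GC trend removed, at −0.33. Of 6 ciliated cell markers 3 were tested: TPPP3 was lower at −1.90 (limma adjusted p = 1.4e-05) and DNAH5 higher by 0.64 (limma adjusted p = 0.00294). Each of these passed the filter only through the group in which it was higher. FOXJ1, also of this list and below the filter, had a mean of 0.258 FPKM untreated and 0.0178 FPKM after dexamethasone. All its dexamethasone libraries lay below all untreated ones, but the share of all genes with such a separation in this direction was not computed. Of 5 basal cell markers only TP63 was tested, at −0.45 (limma adjusted p = 0.0203), a call lost without untreated replicate 3 or dexamethasone replicate 3 or 4. The part of any other cell identity in the rise of SFTPD was not tested. Over all of these context lists 55 of 113 genes were tested and 27 called, 14 higher and 13 lower, with a median log2 fold change of 0.09. The share to set beside the count of each list is that over all tested genes, 27.2% called, 11.9% higher and 15.3% lower.

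**Figure D3:**
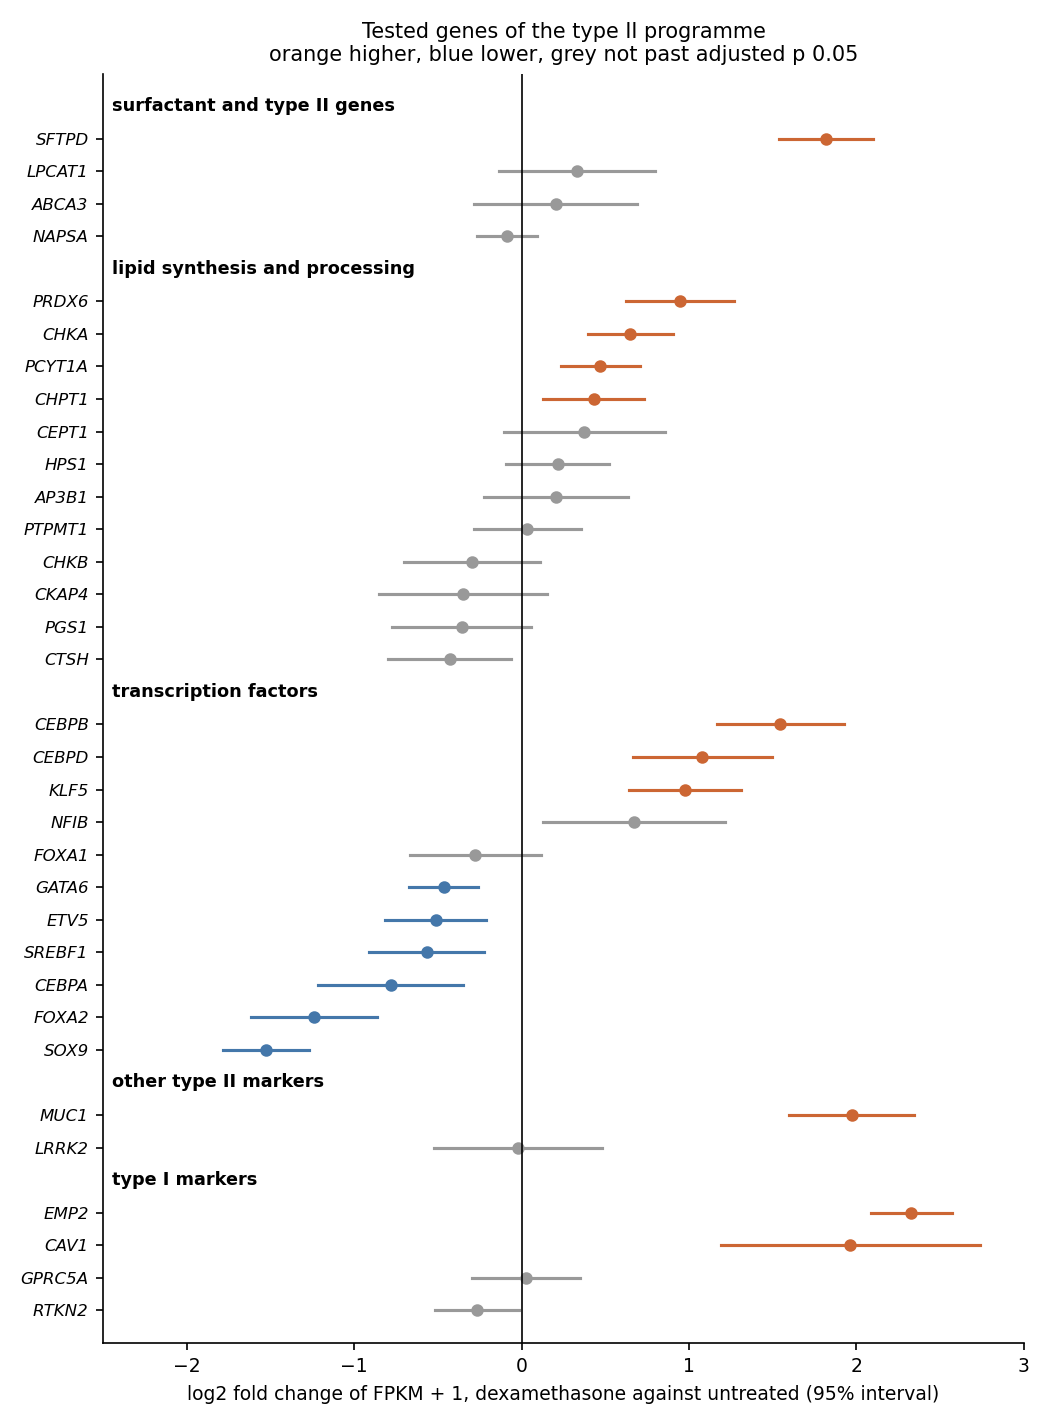
Log2 fold change of FPKM + 1, dexamethasone against untreated, with its 95% interval (horizontal), for the tested genes of the surfactant set and of 4 context lists (rows), coloured orange where called higher, blue where called lower and grey where not called. SFTPD at 1.82 stands apart from LPCAT1, ABCA3 and NAPSA, whose intervals include 0, and the transcription factors run from 1.55 for CEBPB to −1.53 for SOX9.

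The genes whose 8 values were most like those of SFTPD were found by Euclidean distance on log2(FPKM + 1) among all tested genes. They were CLDN7, a claudin of epithelial tight junctions, at 0.519, CYP4B1, a cytochrome P450 of the lung, at 0.558, and LCE3D, a gene of the epidermal late envelope cluster, at 0.575. CLDN7 measured 0.120 ± 0.130 FPKM untreated and 2.83 ± 0.526 after dexamethasone, and LCE3D 0.0162 ± 0.0324 and 3.56 ± 0.581 FPKM (SD, n = 4 each). CYP4B1 was listed at 0 in every untreated library and measured 2.67, 3.21, 2.50 and 3.89 FPKM in dexamethasone replicates 1, 3, 4 and 5. The likeness is one of level and group difference over the same 8 libraries and is given with no test.

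The genes around SFTPD, SFTPB and NKX2-1 were listed next, within 500 kb on each side of the start, a window set after values had been seen. Around SFTPD none of 4 tested genes was called by limma at an adjusted p under 0.05, and 8 others were too low to test, among them SFTPA1 and SFTPA2 at 338 and 389 kb. Around SFTPB 4 of 16 tested genes were higher and none was lower, where 11.9% of all tested genes were higher. The nearest tested gene on one side, ATOH8, a basic helix-loop-helix factor whose start lies at −85.8 kb, rose from 1.60 ± 0.487 to 28.5 ± 1.29 FPKM (SD, n = 4 each), by 3.49 (SE 0.183, limma adjusted p = 2e-06). TMEM150A, VAMP8 and RETSAT, at 65.5, 90.6 and 314 kb on the other side, were higher by 0.96, 0.73 and 1.05 (limma adjusted p = 0.0237, 0.0137 and 0.00026). The call of TMEM150A was lost without untreated replicate 1 or 4 or dexamethasone replicate 1 or 3 (0.82 to 0.94). Around NKX2-1 3 genes were tested, and PAX9 and MBIP were higher by 0.75 and 0.47 (limma adjusted p = 0.000472 and 0.0308), the second losing its call in 7 of 18 alternatives with a lowest value of 0.13, while NKX2-8, 62.4 kb away, was not called at 0.19 (adjusted p = 0.432).

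**Figure D4:**
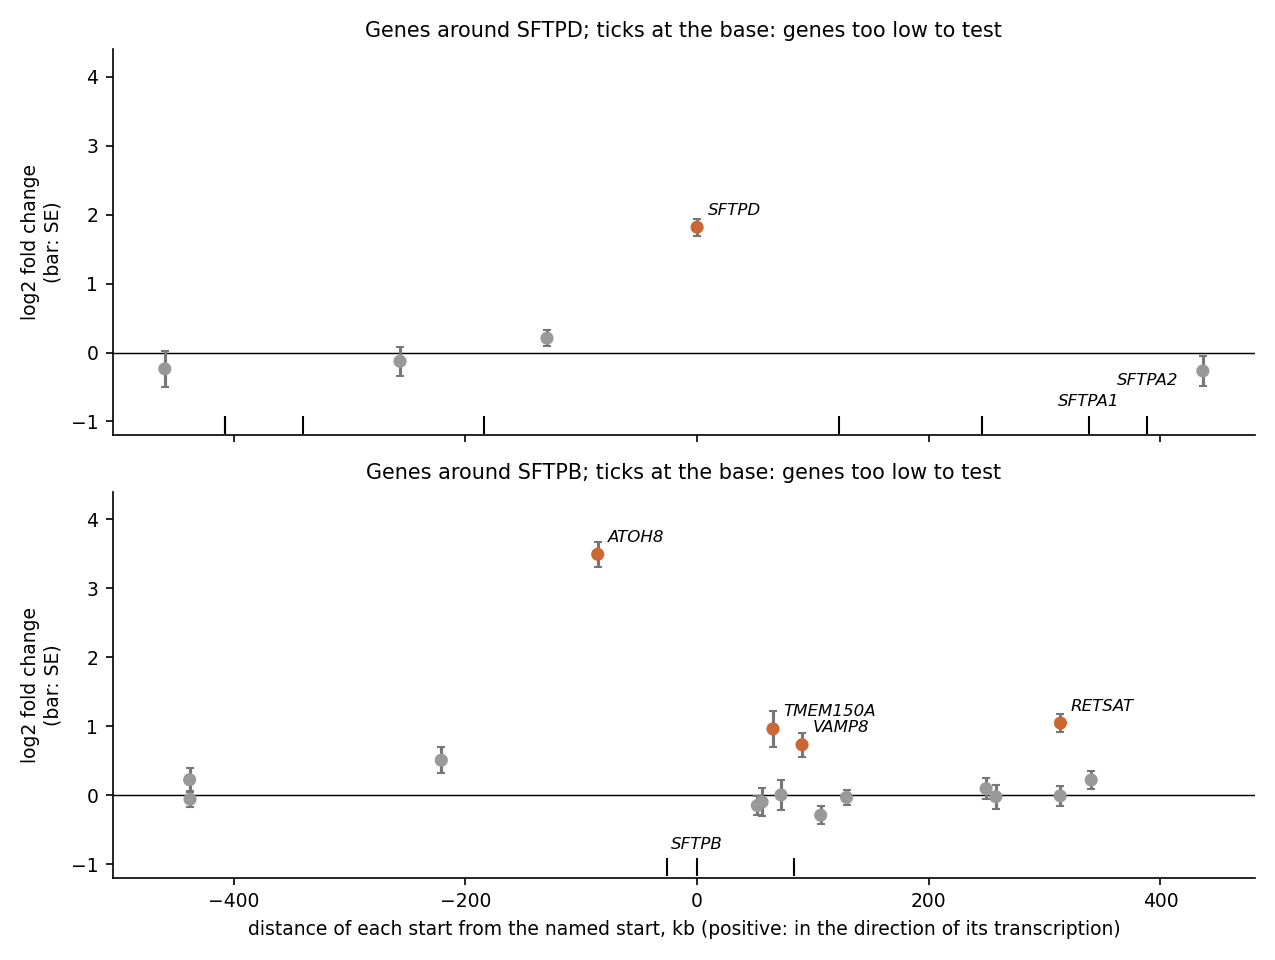
Log2 fold change with its SE (vertical) of tested genes by the distance of their start from that of SFTPD (top) or SFTPB (bottom) in kb, positive in the direction of transcription, orange where called higher; ticks at the base mark genes too low to test. SFTPD is the only called gene of its window at 1.82, and 4 genes around SFTPB are called, with ATOH8 the highest at 3.49.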

How the data were processed

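The authors' 8 deposited tables, 1 per library, were used. Total RNA had been depleted of ribosomal RNA and sequenced as paired ends, per the labels' protocols. Per the submitters' processing notes, the tools were FastQC 0.11.9, cutadapt 3.4, STAR 2.7.9a, featureCounts (Subread 2.0.3) and DESeq2 1.32.0, with GRCh38. The submitters name the deposited tables as gene counts, but the values are not whole numbers and were read as FPKM from their sums and low-value steps; the step that made them, the gene annotation and the strand setting are not given in the sources used here.

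Group differences in log2(FPKM + 1) came from limma 3.58.1 under R 4.3.3 (lmFit, eBayes with trend and robust, group only, two-sided) over all 8 libraries, after scaling by a trimmed mean of M values (trims 0.3 and 0.05) on genes with at least 0.5 FPKM in at least 4 libraries (3 where a library was left out). Benjamini-Hochberg adjustment ran over all tested genes. Genes below the filter were tested by exact permutation over the 70 splits, or over all splits of the remaining libraries where a library was left out. The procedure was tested on simulated data. Fragments were estimated from FPKM, transcript length (GENCODE 44, 99.5% of genes found by identifier) and depth; 42.2% to 48.4% of low values lay within 0.1 of a whole fragment, too few to restore read counts for a count test. Depth intervals and floors cover counting error only.

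Named genes are the whole surfactant set, at most 3 called genes per direction with the smallest p in each context list, defining genes at 0, and the 3 genes most like a called one; CHPT1, SFTA2, several marker and comparison genes and the neighbours were named beyond this rule, after their values were seen. The set and the lists were chosen with earlier results of these data known. Alternatives covered pseudocount, filter, scaling, GC trend, replicate block and left-out libraries.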

Additional observations from a re-analysis of the deposited data

Results flagged for a closer look

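In 67 groups of 4 values, 10 had a library far from the other 3. In 4 of them the other 3 values were all 0, so that any value above 0 stands apart. Of the remaining 63 groups 6 had such a library, where chance at 1 in 20 gives about 3, and 5 of these 6 were replicate 5 of either group. The lone nonzero values of about 1 fragment were SFTPA2 at 0.0181 FPKM in untreated replicate 1, NKX2-1 at 0.0154 FPKM in untreated replicate 3 and SLC34A2 at 0.00966 FPKM in untreated replicate 5, each against 0 in the other untreated libraries. LCE3D was likewise at 0.0648 FPKM in untreated replicate 3 alone.

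NAPSA was at 0.495 FPKM in untreated replicate 5 and at 0.547 to 0.557 FPKM in the other untreated libraries. SOX9 was at 8.68 FPKM in untreated replicate 5, against 11.9 to 12.4. TP63 was at 1.37 FPKM in untreated replicate 3, against 0.781 to 0.824. In dexamethasone replicate 5, CHKA was at 12.5 FPKM (15.9 to 16.5 in the others), KLF5 at 21.5 FPKM (26.8 to 27.7) and LCE3D at 4.42 FPKM (3.16 to 3.35).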

How the results depend on the processing

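SFTPD was called in all 18 alternatives, with log2 fold changes of 1.73 to 3.79. Without any filter 2 genes of the set were called (SFTPD and SFTPB), where 21.7% of all genes were called. With the GC trend removed 3 were called (SFTPD, ABCA3 and LPCAT1), where 37.1% of all genes were called. In that setting 23 context genes were higher in place of 14. Without both libraries numbered 5, 2 were called (SFTPD and LPCAT1), where 45.1% of all genes were called. Leaving out 1 library at a time left 1 of the set called, 20 to 31 context genes and 2362 to 3905 of all genes (19.3% to 31.8%). Leaving out both libraries numbered 5 gave 5513 in place of 3310. NAPSA reversed to 0.15 with the GC trend removed, with or without the replicate block, and could not be tested under a filter of 1 FPKM. ABCA2 lost its call in 11 of 18 alternatives, MBIP in 7, CHPT1 in 6, MBOAT7, SREBF1 and TMEM150A in 4, ETV5 and TP63 in 3, MBOAT2 in 2, and CEBPA, GATA6 and MUC5B in 1 each; for these the cause was not tested.

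Replicate numbers are shared by the groups, but same-numbered libraries deviated together with correlations of 0.29, 0.07, 0.31 and 0.71 for 1, 3, 4 and 5, so they were not taken as pairs. With the replicate block 5776 genes (47.5% of those tested) and 2 of the set were called (LPCAT1 joined, limma adjusted p = 0.0246). With block and GC trend removal together 5295 genes (43.5% of those tested), 3 of the set and 41 context genes were called. Depth is a limit for the 6 of the 10 genes below the filter, and the 95% interval of ABCA3 reaches 0.69.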
